A study of Rattus norvegicus with 6 samples.

Results

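The miR-34 family was examined in small RNA sequencing libraries of rat cortical neurons. Its members were taken by name, as the 5p and 3p arms of miR-34a, miR-34b and miR-34c, and 5 of the 6 are among the 649 mature miRNAs counted, listed as rno-miR-34a-5p, rno-miR-34b-5p, rno-miR-34b-3p, rno-miR-34c-5p and rno-miR-34c-3p. miR-34a-3p was not analysed here. The neurons were dissociated from the cortex of male and female embryonic day 18 Sprague-Dawley rats and kept for 7 days in vitro (DIV) by the sample labels, where a figure legend of the study gives 6 DIV, with fluorodeoxyuridine added to the cultures to stop the division of non-neuronal cells. 3 libraries came from neurons given 100 ng/ml brain-derived neurotrophic factor (BDNF) and 3 from neurons given the vehicle, 0.1% BSA, each for 20 min. In each condition the libraries are numbered 1 to 3, and the study describes them as biological replicates.

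MiRNAs are cut from a hairpin whose 5′ and 3′ sides each give an arm, 5p and 3p. An Argonaute protein usually keeps one arm as the guide, and bases 2 to 8 of the guide, the seed, pair with target mRNAs. The miR-34 genes are known as transcriptional targets of the tumour suppressor p53. miR-34a has been linked to neuronal differentiation and dendrite growth, and miR-34b and miR-34c, together with the miR-449 miRNAs of the same seed, are best known from multiciliated cells and the testis. BDNF is a secreted growth factor that acts through the TrkB receptor on neuronal dendrites and synapses.

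The mature sequences, read from the RefSeq annotation of GRCr8, are shown because they define the family and because the similarity of miR-34b-5p and miR-34c-5p bears on how reads were assigned to each. The seed is in capitals. The 5p arms of the family and the 5p arms of miR-449a and miR-449c carry the same seed, and no other of the 693 mature miRNAs in the RefSeq table does.
miR-34a-5p: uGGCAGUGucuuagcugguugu
miR-34b-5p: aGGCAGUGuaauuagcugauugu
miR-34c-5p: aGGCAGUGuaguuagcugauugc
miR-449a-5p: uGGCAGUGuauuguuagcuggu
miR-449c-5p: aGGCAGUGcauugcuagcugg
The 3p arms of miR-34b and miR-34c share another seed with each other, which no other miRNA in that table carries.
miR-34b-3p: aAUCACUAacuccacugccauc
miR-34c-3p: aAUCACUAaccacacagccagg
Over their 23 bases, miR-34b-5p and miR-34c-5p differ only by A11G and U23C, given from miR-34b-5p to miR-34c-5p and counted from 1 at the 5′ end. The authors' mapping allowed 1 mismatch and up to 3 trimmed bases at an end, and how reads matching several miRNAs were assigned is not stated in the sources used here. A read that lacks base 23 can thus be told apart at a single position, so the split of reads between miR-34b-5p and miR-34c-5p is uncertain. The 3p arms of the same hairpins differ at 5 of 22 positions. Compared base by base from the 5′ end without gaps, miR-34a-5p differs from miR-34c-5p at 11 of 22 positions. Both carry the stretch uuagcug, which begins further along in miR-34c-5p, so an alignment with a gap would show fewer differences.

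The family comes from separate loci. In GRCr8 the hairpin of miR-34a lies on the plus strand at chr5:165815952-165816053, within the span of the long non-coding RNA gene LOC103692514. The hairpin of miR-34b lies on the minus strand at chr8:60306609-60306692 and that of miR-34c at chr8:60306091-60306167, with 441 bases between them. Both overlap the span of the protein-coding gene Hoatz, and 397 bases separate the miR-34b hairpin from the neighbouring gene Btg4. The miR-449 hairpins lie on the plus strand at chr2:46403910-46404000 for miR-449a and chr2:46402375-46402473 for miR-449c, inside the long non-coding RNA gene LOC134485839. Whether the hairpins are exonic or intronic was not determined from the gene table used here.

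The libraries held between 10374120 and 12533029 miRNA reads. The cultures were examined for 6 miRNAs known from neurons, of which miR-9a-5p and miR-128-3p were the most abundant miRNAs of all. Levels are given as RPM, the reads of a miRNA scaled to 1000000 miRNA reads in its library. The neuronal list summed to 336204 to 393666 RPM in control and 377661 to 412979 RPM in BDNF libraries. Nearly all of that sum was miR-9a-5p and miR-128-3p. Over the 6 libraries miR-124-3p averaged 5244 RPM, below the 6596 RPM of the glial miR-21-5p. miR-137-3p averaged 1144 RPM, miR-138-5p 307 RPM and miR-153-3p 27.1 RPM. The 4 glial miRNAs, led by miR-21-5p, summed to 5617 to 7529 RPM over all libraries. Libraries with the same replicate number deviated together from the mean of their condition, so that the main comparisons are given both as a difference of group means and by replicate number.

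Among the members, miR-34c-5p was the most abundant and ranked 178 of 649 by its mean over the 6 libraries. It had 156, 97.3 and 104 RPM in control replicates 1 to 3 and 150, 106 and 92.1 RPM in the BDNF replicates. Replicate 1 was the highest in each condition, and the conditions overlapped over most of their range. miR-34a-5p followed at rank 225, with 55.8, 45.4 and 73.0 RPM in control and 45.6, 34.3 and 61.1 RPM in BDNF libraries. Here replicate 3 was the highest and replicate 2 the lowest in each condition. miR-34c-5p thus exceeded miR-34a-5p in all 6 libraries, although ligation and amplification efficiencies differ between miRNA sequences and were not measured.

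The remaining arms were near the limit of detection. miR-34b-3p was read 16, 20 and 12 times in control and 14, 12 and 17 times in BDNF libraries, or 1.43 ± 0.24 RPM and 1.23 ± 0.18 RPM (SD, n = 3 each). miR-34c-3p was read 10, 10 and 15 times in control and 10, 7 and 8 times in BDNF libraries, which is 1.07 ± 0.34 RPM and 0.716 ± 0.124 RPM (SD, n = 3 each). miR-34b-5p was the rarest member, with 10, 2 and 4 reads in control and 20, 7 and 6 reads in BDNF libraries. Counting error alone spans a wide range at this depth. The 2 reads of control replicate 2 correspond to 0.160 RPM, with an exact (Clopper-Pearson) 95% interval from 0.0193 to 0.576 RPM, and the 20 reads of BDNF replicate 1 correspond to 1.71 RPM, with an interval from 1.05 to 2.64 RPM. Such intervals cover counting error only, since reads amplified by PCR are not independent molecules. The order of these 3 rare arms was not the same in all libraries, and the ranges of neighbours in it overlapped.

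miR-449a-5p, the other miRNA with this seed above a trace level, had 12.1, 9.89 and 9.54 RPM in control and 11.8, 10.1 and 11.3 RPM in BDNF libraries. It contributed 5.11% to 6.82% of all reads with the miR-34 seed. miR-449c-5p was read 3 times in all 6 libraries together, and miR-449c-3p 1 time. Of the 6 miRNAs fixed as marks of multiciliated and other epithelial cells, miR-449a-5p alone passed the abundance filter of 10 RPM. miR-200c-3p, miR-200b-3p and miR-200a-3p were at 4.24 ± 1.37, 1.01 ± 0.46 and 0.528 ± 0.172 RPM in control libraries (SD, n = 3 each), and the list summed to 14.6 to 17.8 RPM over all libraries.

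**Figure D1:**
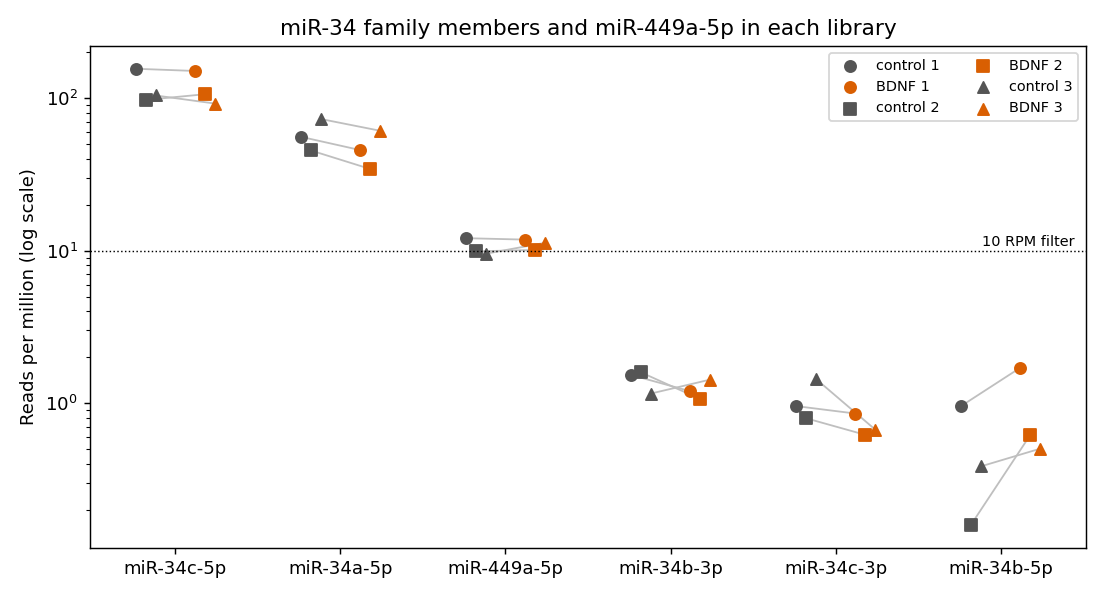
RPM on a log scale for the 5 miR-34 members and miR-449a-5p in the 3 control (grey) and 3 BDNF (orange) libraries, with lines joining libraries of the same replicate number and a dotted line at the 10 RPM filter. miR-34c-5p lies between 92.1 and 156 RPM and miR-34a-5p between 34.3 and 73.0 RPM, while the other members stay near or below 1.71 RPM.

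The b/c locus gave more 5p reads than the a locus in every library. The summed RPM of miR-34b-5p and miR-34c-5p divided by the RPM of miR-34a-5p was 2.81, 2.15 and 1.43 in control replicates 1 to 3 and 3.34, 3.11 and 1.52 in the BDNF replicates. miR-34c-5p alone made up 58.6% to 76.1% of the 5p reads of the family and miR-34b-5p 0.112% to 0.865%, and reads exchanged between these arms of the b/c locus leave the ratio as it is. By replicate number, the ratio averaged 3.07 in replicate 1, 2.63 in replicate 2 and 1.47 in replicate 3. Replicate 3 had the lowest ratio in both conditions.

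BDNF against control was compared for this balance as the log2 ratio of miR-34a-5p to the summed 5p arms of the b/c locus, a measure that does not depend on library normalization. It was -1.04 ± 0.49 in control and -1.32 ± 0.63 in BDNF libraries (SD, n = 3 each). The ratio was lower with BDNF in all 3 pairs, by -0.25, -0.53 and -0.08 on the log2 scale. It holds the same miR-34a-5p reads as the fold change of that arm given below, so these are not independent observations. The mean difference of -0.29 was smaller than the spread between libraries of a condition, and the two-sided exact permutation test gave p = 0.5, where 3 against 3 libraries cannot give less than 0.1. Flipping the sign of the 3 within-number differences gave an exact p = 0.25, the smallest value possible.

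**Figure D2:**
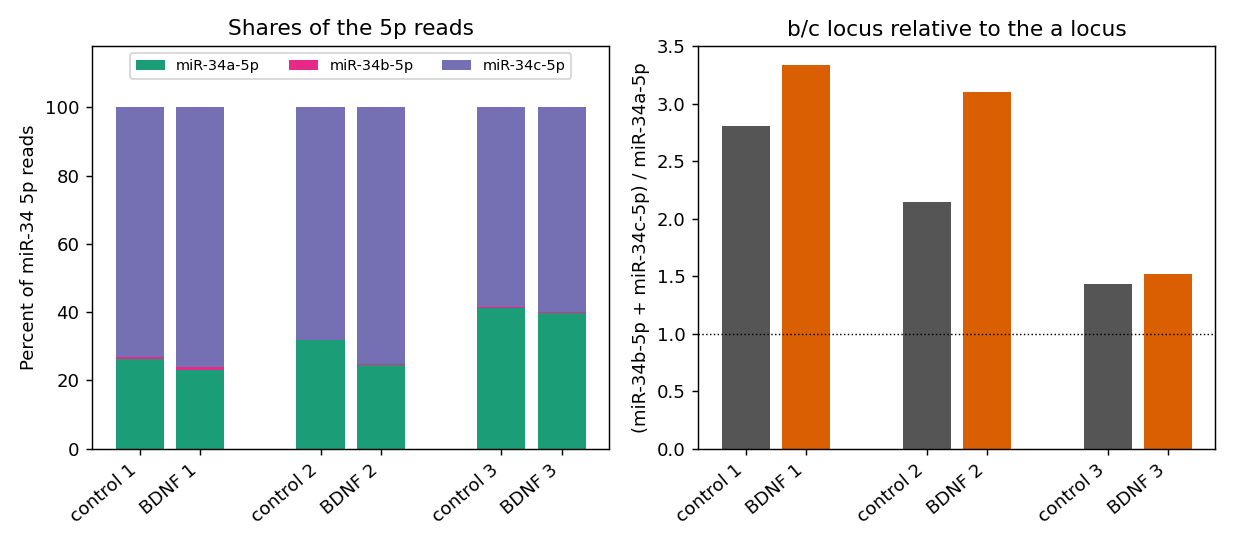
Left, percent of the family's 5p reads from miR-34a-5p, miR-34b-5p and miR-34c-5p in each library, with libraries of the same replicate number side by side. Right, the summed RPM of miR-34b-5p and miR-34c-5p divided by that of miR-34a-5p, which runs from 1.43 to 3.34 and lies above the dotted line at 1 in every library.

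The abundant arms also followed different patterns over the replicate numbers. In edgeR's quasi-likelihood fit with condition and replicate number, added after the data had been seen, miR-34c-5p was lower in replicate 2 than in replicate 1 by a log2 value of -0.60 and in replicate 3 by -0.82 (adjusted p = 0.00123 for replicate number). For miR-34a-5p the log2 differences from replicate 1 were -0.35 in replicate 2 and 0.23 in replicate 3 (adjusted p = 0.00759 in the edgeR fit). Such differences were common, since 48.2% of the 336 miRNAs tested had an adjusted p below 0.05 for replicate number. Other lists moved with the number as well. The 5 vascular and blood miRNAs, none of them at 0 in any library, summed to 188 and 181 RPM in control and BDNF replicate 1, against 123.96 to 140.93 RPM in the other libraries. Their part in the levels of miR-34c-5p was not tested, and in bulk RNA more cells of a type cannot be told apart from more miRNA per cell. Of that list, miR-143-3p and miR-126a-3p made up most of the sum and were highest in replicate 1, whereas miR-451-5p was highest in replicate 2 and miR-145-5p lowest in replicate 1 of each condition. The glial list was also highest in replicate 1, at 7331 and 7529 RPM, and lowest in replicate 3, at 5617 and 5652 RPM. That sum was nearly all miR-21-5p, and the other glial miRNAs followed it only in part. miR-146a-5p was also highest in replicate 1 of each condition, at 19.0 and 14.9 RPM, but lowest in replicate 2, at 9.81 and 11.3 RPM. miR-219a-5p was highest in replicate 1 among control libraries and lowest there among BDNF libraries. miR-338-3p was highest in control replicate 2 and in BDNF replicate 1.

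The miRNAs most like each abundant arm were found by the root mean square difference of log2 normalized RPM over the 6 libraries, each miRNA centred on its own mean, among the other 335 miRNAs past the filter. For miR-34a-5p the closest were miR-592 with a difference of 0.083, miR-331-3p with 0.104, miR-431 with 0.107, miR-329-3p with 0.160 and miR-433-5p with 0.162, where the median over all was 0.323. For miR-34c-5p they were miR-192-5p with 0.094, miR-382-3p with 0.104, miR-503-5p with 0.106, miR-3559-3p with 0.123 and miR-450a-5p with 0.125, against a median of 0.372. miR-34a-5p and miR-34c-5p were not close to each other by this measure. At a difference of 0.480, miR-34c-5p stood at place 288 of 335 for miR-34a-5p, and miR-34a-5p at place 257 for miR-34c-5p.

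**Figure D3:**
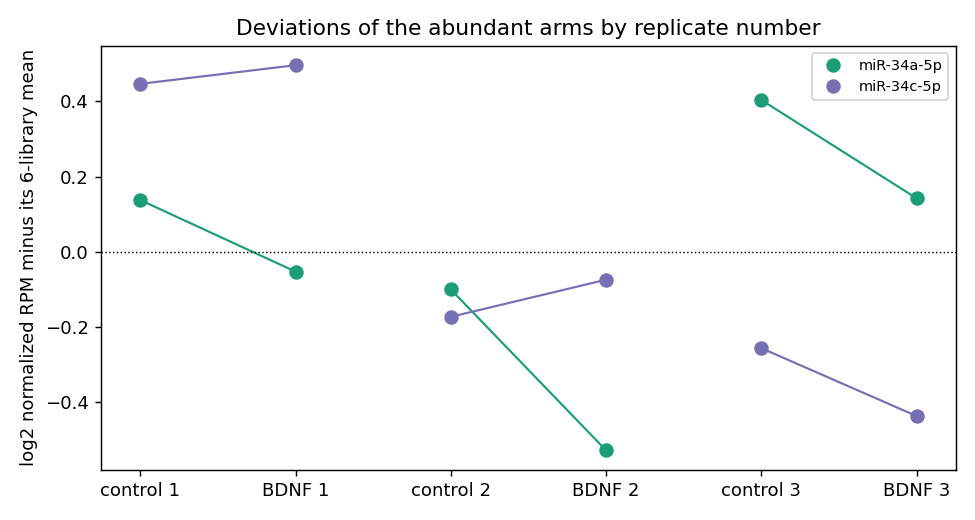
log2 normalized RPM of miR-34a-5p (green) and miR-34c-5p (purple) minus the mean of each over the 6 libraries, with lines joining control and BDNF of the same replicate number. miR-34c-5p is highest in replicate 1 and miR-34a-5p in replicate 3, and within each number miR-34a-5p is lower with BDNF than in control.

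The effect of BDNF on the level of each member was read from edgeR's quasi-likelihood test over the whole table. miR-34a-5p and miR-34c-5p passed the filter of a mean of 10 RPM in one condition and were among the 336 miRNAs tested. No miRNA had an adjusted p below 0.05, which is 0% of those tested, and 2.98% had an unadjusted p below 0.05. DESeq2 likewise called 0 miRNAs after adjustment and 12 at an unadjusted p below 0.05. Neither abundant member was among those called at either threshold in this fit.

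miR-34a-5p had 58.0 ± 13.9 RPM in control and 47.0 ± 13.4 RPM in BDNF libraries (SD, n = 3 each). The conditions overlapped, but within each replicate number the BDNF library was lower, with RPM ratios of 0.818, 0.756 and 0.837. The log2 fold change was -0.28 with a standard error of 0.22, for an unadjusted p of 0.235 and an adjusted p of 0.999 in edgeR. With the replicate number as a block, the log2 fold change was -0.29 with a standard error of 0.086, and p was 0.00939 unadjusted and 0.166 adjusted, so that it did not pass the test after adjustment. In the fit with the block, 20.5% of the miRNAs tested had an unadjusted p below 0.05, 12.8% with a lower level after BDNF, and 0% an adjusted p below 0.05. By its p in that fit, miR-34a-5p stood at place 16 of 336. Likewise, 30.1% of the 336 miRNAs had a lower RPM with BDNF in all 3 pairs, and 23.8% after division by the TMM factor.

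miR-34c-5p showed no such offset. It had 119 ± 32 RPM in control and 116 ± 31 RPM in BDNF libraries (SD, n = 3 each). The RPM ratios within the replicate numbers were 0.967, 1.09 and 0.885. After division by the TMM factor they were 1.04, 1.07 and 0.882. The log2 fold change was 0.0055 with a standard error of 0.29, and -0.0093 with a standard error of 0.083 when the replicate number was a block. The sign thus differed between the fits, and the adjusted p was 0.999 and 0.973 in edgeR. For miR-449a-5p the log2 fold change was 0.097 with a standard error of 0.16 (adjusted p = 0.999 in edgeR).

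**Figure D4:**
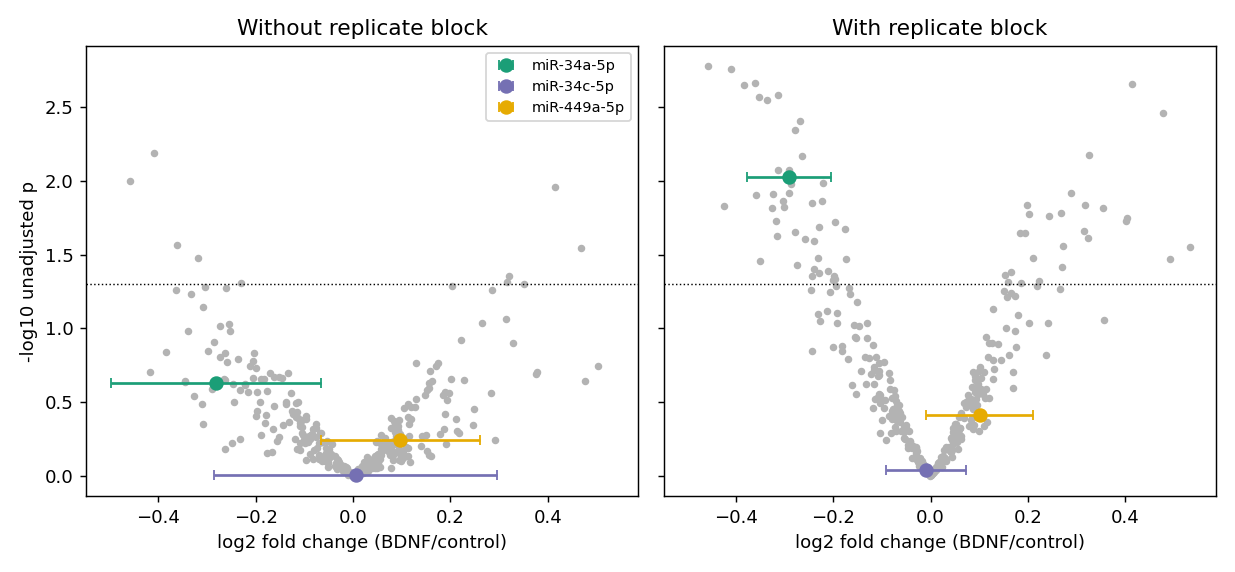
log2 fold change (BDNF/control) against -log10 of the unadjusted p for the 336 miRNAs tested in edgeR, without and with the replicate number as a block. Coloured points with standard errors mark miR-34a-5p, miR-34c-5p and miR-449a-5p, and the dotted line is at p of 0.05, which among them only miR-34a-5p in the fit with the block exceeds.

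The 3 rare arms did not pass the filter and were read from the edgeR fit without it, where 2.31% of 649 miRNAs had an unadjusted p below 0.05 and 0% an adjusted p below 0.05. miR-34b-5p had a log2 fold change of 0.99 with a standard error of 0.70, and a higher RPM with BDNF in all 3 pairs, as had 9.24% of the 649 miRNAs. The unadjusted p was 0.194, and 0.0716 with the replicate number as a block (adjusted p = 0.443 in edgeR). The value rested on few reads, being 0.21 without BDNF replicate 1, 0.56 without control replicate 2 and 1.85 without control replicate 1. As miR-34b-5p amounted to 0.164% to 1.14% of the reads of miR-34c-5p, a small misassignment from miR-34c-5p could reach its level, which was not tested. miR-34b-3p had a log2 fold change of -0.20 with a standard error of 0.30, and miR-34c-3p of -0.52 with a standard error of 0.36. Leaving out control replicate 3 moved these values to -0.37 for miR-34b-3p and -0.30 for miR-34c-3p, and leaving out control replicate 2 moved that of miR-34b-3p to -0.061. The RPM of miR-34c-3p was lower with BDNF in all 3 pairs, as was that of 21.7% of the 649 miRNAs. In replicate 1, however, it was read 10 times in each condition, so there the RPM differed only by library size. All 3 had an adjusted p of 0.9997 in edgeR without the block, so that differences of these sizes were not detected with 3 libraries a group and these read numbers.

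As a whole, the 5p arms of the family summed to 212.4, 142.8 and 177.4 RPM in control and 197.8, 140.9 and 153.7 RPM in BDNF libraries. The mean difference of -0.11 on the log2 scale was smaller than the spread between libraries of a condition (two-sided exact permutation test, p = 0.7). Within the replicate numbers the sum was lower with BDNF in all 3 pairs, by -0.10, -0.020 and -0.21 on the log2 scale (SD of the differences 0.094). Flipping their signs gave an exact p = 0.25, the smallest value possible. Of the 336 single miRNAs, 30.1% had a lower RPM in all 3 pairs, and 23.8% after division by the TMM factor. For replicate 1 the median log2 RPM ratio over miRNAs was -0.105, and -0.0062 after that division. Divided by the TMM factor, the sum had a mean log2 difference of -0.087 (two-sided exact permutation test, p = 0.5). The sum includes the reads of miR-34a-5p, so it is not independent of that arm's change.

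The hairpins of the b/c locus differed in which arm was read. For miR-34c the 5p arm gave 98.6% to 99.4% of the reads of both arms, with 7972 reads from the 5p and 60 from the 3p arm over all 6 libraries. Its mean log2 5p/3p ratio of 7.00 was high among the 140 precursors whose rarer arm averaged at least 10 reads, of which 16 had a higher ratio. For miR-34b the 3p arm prevailed in 5 of the 6 libraries. Its 5p share was 38.5%, 9.09% and 25.0% in control and 58.8%, 36.8% and 26.1% in BDNF libraries. Over all libraries 49 of 140 reads came from the 5p arm, a share of 35.0%. Its exact 95% interval, from 27.1% to 43.5%, pools the reads of both conditions. It covers counting error only and not the wider spread between libraries. Reads of miR-34b-5p that were counted as miR-34c-5p would lower this share, and reads exchanged the other way would raise it.

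The change of the log2 5p/3p ratio with BDNF was tested for all 140 precursors with limma, of which 4.29% had an unadjusted p below 0.05 and 0% an adjusted p below 0.05. The ratio of miR-34c was 6.75 ± 0.58 in control and 7.24 ± 0.20 in BDNF libraries (SD, n = 3 each). It changed by 0.49 with a standard error of 0.41 (unadjusted p = 0.269, adjusted p = 0.970 in limma), and its rarer arm lay exactly at the minimum of 10 reads on average. Without control replicate 1 the change was 0.75 (adjusted p = 0.338 in limma). By replicate number the ratio of miR-34c was higher with BDNF each time. How many of the 140 precursors did the same was not determined. For miR-34c, control and BDNF gave 7.27 and 7.39, 6.86 and 7.32, and 6.12 and 7.01. With the replicate number as a block the change was 0.49 with a standard error of 0.41 (adjusted p = 0.671 in limma). miR-34b fell below the minimum of 10 reads. Its log2 ratio was -1.72 ± 1.21 in control and -0.56 ± 0.98 in BDNF libraries (SD, n = 3 each). The conditions overlapped. By replicate number the ratio was higher with BDNF each time, but hardly so in replicate 3. There the 5p and 3p arms had 4 and 12 reads in control and 6 and 17 in BDNF libraries. For miR-34b, the log2 ratios in control and BDNF were -0.65 and 0.50, -3.04 and -0.74, and -1.47 and -1.43. These values rest on few reads, and the change was not tested.

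**Figure D5:**
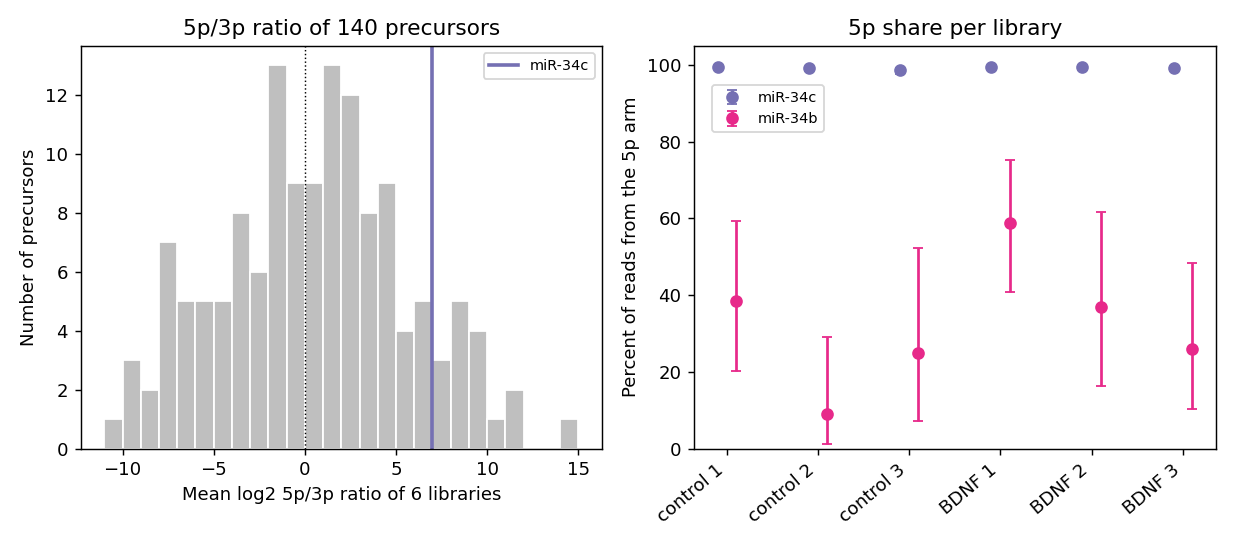
Left, number of precursors by their mean log2 5p/3p ratio over the 6 libraries, with miR-34c marked at 7.00 and a dotted line at equal arms. Right, percent of reads from the 5p arm in each library with exact 95% binomial intervals, at 98.6% to 99.4% for miR-34c and at 9.09% to 58.8% for miR-34b.

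Other miRNAs that have been linked to p53 were compared from a list of 9, all of them counted. miR-192-5p, miR-194-5p, miR-107-3p, miR-16-5p and miR-143-3p passed the filter, and none had an adjusted p below 0.05 in edgeR. Only miR-16-5p, which the study singled out from these samples, had an unadjusted p below 0.05 in edgeR, without the block (2.98% of all miRNAs tested) and with it (20.5%). Their median log2 fold change was -0.06, against -0.0015 over all 336 miRNAs. miR-192-5p, whose pattern over the libraries was the closest to that of miR-34c-5p, had 508 ± 181 RPM in control and 511 ± 142 RPM in BDNF libraries (SD, n = 3 each). miR-215, miR-200c-3p, miR-141-3p and miR-145-5p stayed below the filter, with miR-215 at 2.63 ± 0.79 RPM and miR-145-5p at 0.272 ± 0.195 RPM in control libraries (SD, n = 3 each).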

How the data were processed

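Small RNA libraries of 3 control and 3 BDNF samples were used, grouped by the sample titles. Per the study's methods, the authors clipped 3′ adapters, dropped reads of low quality or under 15 nucleotides, and aligned what remained to miRBase v21 rat sequences using Miraligner. The deposited values are raw read counts for 649 mature miRNAs. Tool versions are not given in the sources used here.

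RPM are counts divided by the sum of all counts in the library, and normalized RPM are also divided by the TMM factor (0.928 to 1.08). Counts were tested with edgeR 4.0.16 in R 4.3.3 (TMM, quasi-likelihood test, Benjamini-Hochberg adjustment, no replicate block) over the 336 miRNAs whose mean reached 10 RPM in control or in BDNF libraries. The 5p/3p ratios were tested with limma 3.58.1 with a pseudocount of 0.5 reads. Single values were compared with exact permutation tests in scipy 1.17.1. Scripts were tested on simulated data. Same-numbered libraries were treated as pairs, because their deviations from the group means correlated at 0.81, 0.49 and 0.89 across the 336 miRNAs, and blocked values are given beside the main results.

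Named miRNAs are the members, miRNAs with the same seed and their opposite arms, lists for p53 and cell types, and the 5 miRNAs most like each abundant arm. Of the 649 miRNAs, 583 matched the RefSeq table by name. The members and lists were chosen with earlier results of these data known. Alternatives were DESeq2 1.42.0, other normalizations, filters and pseudocounts, the block and leaving out each library.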

Additional observations from a re-analysis of the deposited data

How the results depend on the processing

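No miRNA had an adjusted p below 0.05 in edgeR or DESeq2 under any alternative run. The number with an unadjusted p below 0.05 was 10, and it was 69 with the replicate block, 6 with library size as the only normalization, and 3 to 32 when single libraries were left out. With the replicate block no member passed the threshold after adjustment, but the adjusted p of miR-34a-5p moved from 0.999 to 0.166 in edgeR, and its unadjusted p was below 0.05 with the block and not without it. The log2 fold change of miR-34a-5p stayed negative in 11 of 11 alternatives. When single libraries were left out it ran from -0.43 to -0.11, the latter without BDNF replicate 2. The log2 fold change of miR-34c-5p turned to -0.034 with library size only and to -0.0093 with the replicate block, and ran from -0.29 to 0.28 when single libraries were left out. That of miR-449a-5p ran from -0.010 to 0.24 and that of the summed 5p arms from -0.26 to 0.029 on leaving out single libraries. The log2 ratio of the a locus to the b/c locus stayed lower with BDNF in 9 of 9 alternatives, at -0.65 to -0.029. These alternatives reuse the same libraries, and the replicate block leaves the difference at -0.29 by construction. The log2 fold changes of miR-34b-5p, miR-34b-3p and miR-34c-3p ran from 0.21 to 1.85, -0.37 to -0.061 and -0.69 to -0.30 when single libraries were left out. The change of the miR-34c arm ratio was 0.35 with a pseudocount of 5 and 0.41 to 0.75 without single libraries. It could not be tested with a minimum of 100 reads, nor without control replicate 3, since the rarer arm then fell below the minimum. For the 3 rare arms, 3 reads correspond to 0.239 to 0.289 RPM.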
